A study of Homo sapiens with 8 samples.

Results

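The stretch of chromosome 5 that runs from TMEM161B over MIR9-2HG, the host transcript of the microRNA gene MIR9-2, to MEF2C was examined for binding of SOX2, OCT4 and NANOG in a pair of human pluripotent cell lines. Its members are the peaks that lie wholly between positions 87560000 and 88250000 of chromosome 5 (build hg19), a window of 690 kb, in any of 6 deposited peak lists. There were 65 such peaks of 201619 in all lists, and joining those that overlap by at least 1 bp gave 32 sites, numbered here from the TMEM161B side. The window was selected on the authors' scores of these same lists, in which its strongest peak stands near the head, so the ranks, tags and folds of that peak are given as a description and support nothing further.

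The lists come from chromatin immunoprecipitation with sequencing (ChIP-seq), in which DNA bound by a protein is pulled down with an antibody and sequenced. H9 cells are human embryonic stem cells, and NT2/D1 cells are embryonal carcinoma cells from a human germ cell tumour. The labels name 8 samples, with SOX2, OCT4, NANOG and an IgG control in each line, and no treatment, time course or genetic change. With 1 library per factor and line, no value could be set against a spread between replicates and no test between libraries was made.

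miR-9 is a microRNA of the nervous system that is made from 3 genomic copies, of which MIR9-2 is embedded in the long non-coding transcript MIR9-2HG. It represses transcription factors and other genes of neural progenitors and is known for its part in the balance between progenitor growth and neuronal differentiation. MEF2C, a MADS-box transcription factor, acts in neurons, muscle and blood cells, and TMEM161B encodes a membrane protein. SOX2, OCT4 (encoded by POU5F1) and NANOG are the transcription factors that hold the pluripotent state, and SOX2 is also kept in neural progenitors.

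The sequences of miR-9 are shown because the strongest peak of the window lies near the start of one of its hosts. RefSeq (GRCh38.p14) gives 3 copies of each mature arm with 1 sequence each, of 23 bases for the 5p arm and 22 bases for the 3p arm. The capitals mark the seed, bases 2 to 8 from the 5′ end, by which a microRNA finds its targets:
hsa-miR-9-5p: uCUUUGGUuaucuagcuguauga
hsa-miR-9-3p: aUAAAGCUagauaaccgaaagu

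Among 2370 mature human microRNAs of the table, no other name shared either seed. The hairpins of the 3 copies follow 5′ to 3′, with the mature arms in capitals, so that the copy of the window can be set beside the others. MIR9-2 (chr5:88666853-88666939, minus strand) is 87 bases long with 14 bases between the arms. MIR9-1 (chr1:156420341-156420429, minus strand) has 89 bases and MIR9-3 (chr15:89368017-89368106, plus strand) has 90, each with 16 bases between the arms. All 3 positions are on GRCh38.p14 and were not converted base by base to hg19, the build of the peaks:
MIR9-2: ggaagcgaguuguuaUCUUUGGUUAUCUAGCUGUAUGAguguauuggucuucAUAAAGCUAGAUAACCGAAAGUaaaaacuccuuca
MIR9-1: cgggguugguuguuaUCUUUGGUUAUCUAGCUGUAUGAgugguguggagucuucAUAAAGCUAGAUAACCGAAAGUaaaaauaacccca
MIR9-3: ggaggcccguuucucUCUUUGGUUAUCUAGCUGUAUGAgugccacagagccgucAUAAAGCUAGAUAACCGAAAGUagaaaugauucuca

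The copies hold the same letters in both arms and differ in the loop and the flanks. Peak sequences are not shown, since no genome of build hg19 was used here.

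Facts of the libraries come first, because they bear on every value below. The H9 lists held 19349 (SOX2), 29575 (OCT4) and 33895 (NANOG) peaks from 54046559 to 77649240 unique tags, and the NT2/D1 lists held 38423, 46169 and 34208 peaks from 10218752 to 23160564 unique tags. The median peak held 32 to 46 tags in H9 and 7 to 11 tags in NT2/D1, so a number of tags is compared only within a list. The IgG libraries behind the lists differed in the share of unique tags, from 17.1% for NT2/D1 SOX2 and NANOG to 68.9% for H9. For NT2/D1 OCT4 and NANOG the source names are exchanged relative to the titles and descriptions. The titles were followed, and the exchanged reading is given for the tag shares, for some sites and for the overlap of H9 peaks with NT2/D1. Elsewhere OCT4 and NANOG in NT2/D1 are named by the titles alone. A peak list holds no expression values, so the identity of the lines was not checked against marker genes. Tags, fold enrichment over the IgG background, score and false discovery rate (FDR) are the authors' values, and a score of 30 was taken to stand for the p-value cutoff of 0.001. In the lists of H9 SOX2, H9 OCT4, NT2/D1 SOX2 and NT2/D1 NANOG the 10 peaks with the highest score all had an FDR of 20% or more, so the FDR did not rank peaks as the score did.

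Gene starts on hg19 were recovered from the distances that the submitters listed beside each peak. TMEM161B (NM_153354) starts at 87564665. MIR9-2HG, named LOC645323 in the lists, has starts at 87969146 (NR_024384), 87974262 (NR_024383) and 87980620 (NR_015436), which span 11.5 kb. MEF2C starts at 88179302 (NM_002397) and 88199869 (NM_001131005). All 3 genes lie on the minus strand in RefSeq, so that a higher coordinate is upstream. On GRCh38.p14 the TMEM161B start is listed at 88268845 and the lowest MIR9-2HG start at 88673339, nearly as far apart as on hg19. Where a GRCh38.p14 position is set beside a site below, it is read by its distance from these starts, which is approximate. The first host start lies 404 kb from the TMEM161B start, and the last lies 199 kb from the nearer MEF2C start.

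A single site, site 11 (chr5:87959052-87961346), held a peak in all 6 lists and was the strongest of the window in each of them. It lies downstream of the lowest host start, NR_024384, with summits 8531 to 8596 bp away, and it overlaps none of the recovered gene starts. In H9 the SOX2 peak there held 515 tags at a fold of 41.47, the OCT4 peak 244 tags at 25.17, and the NANOG peak 463 tags at 51.45. In NT2/D1 the SOX2 peak held 89 tags at a fold of 31.14, the OCT4 peak 76 tags at 20.6, and the NANOG peak 92 tags at 33.48. Each fold stood well above the median peak of its list, by 7.99 times for H9 SOX2, 5.57 for H9 OCT4 and 10.1 for H9 NANOG. In NT2/D1 the SOX2 peak stood 4.98 times above its median, that of OCT4 2.37 times and that of NANOG 4.76 times.

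**Figure D1:**
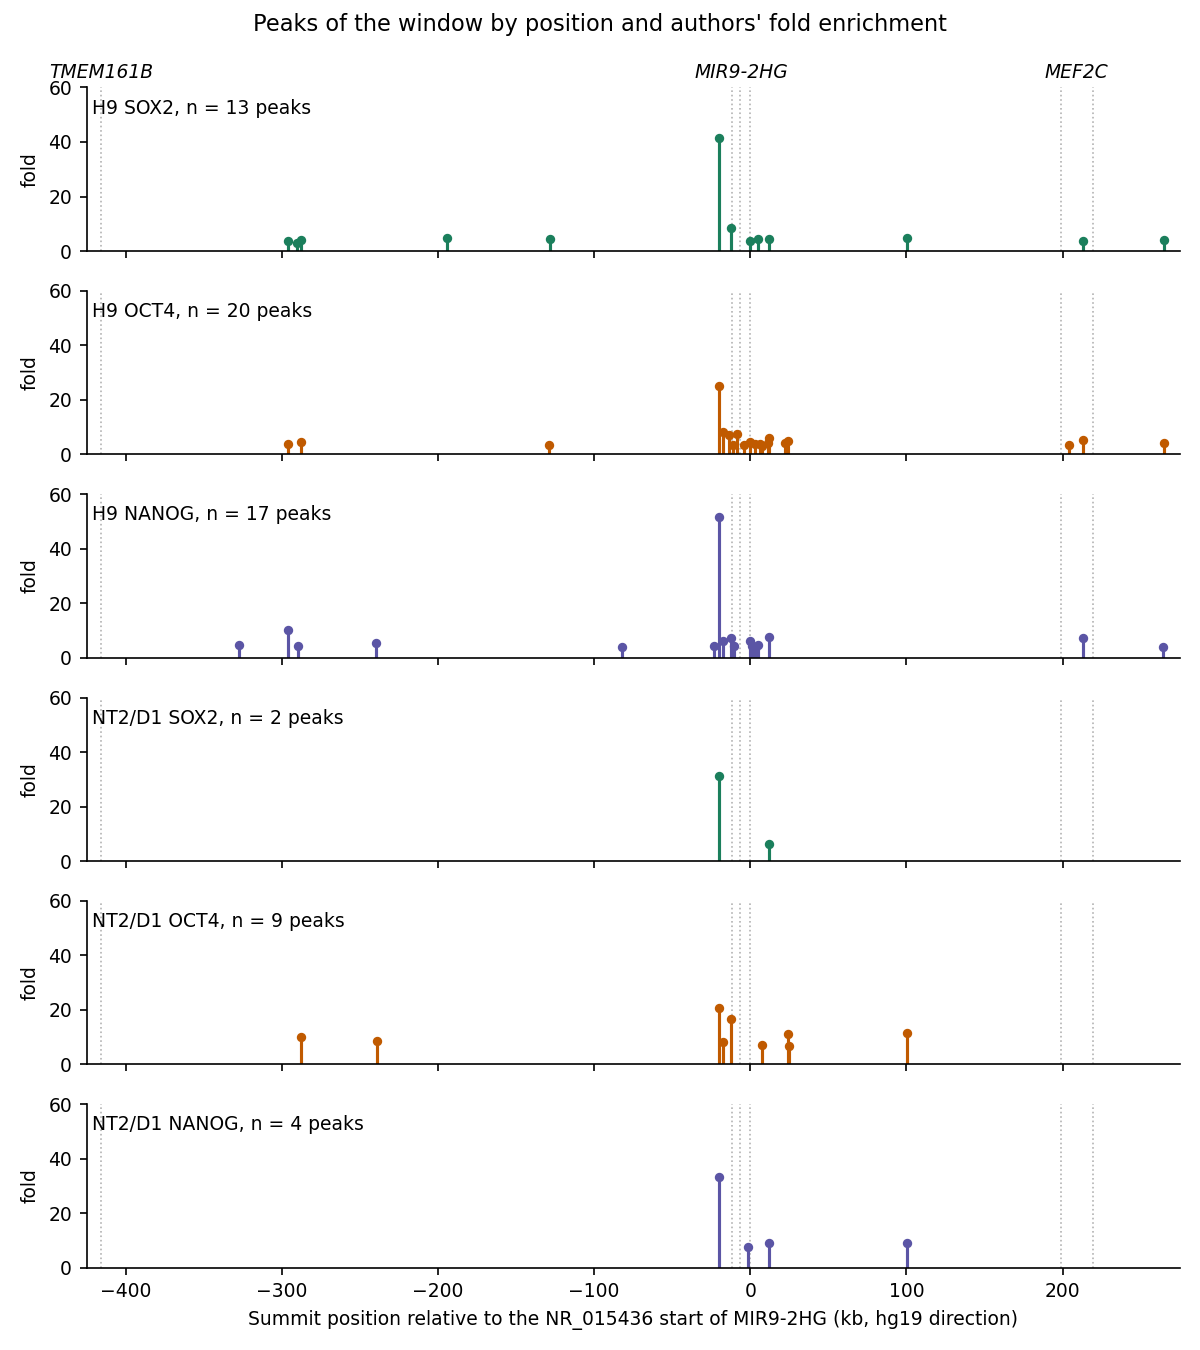
Authors' fold enrichment of each of the 65 window peaks (y axis, fold over IgG) against the position of its summit relative to the NR_015436 start of MIR9-2HG (x axis, kb), with 1 panel for each list and dotted lines at the gene starts. In every panel the tallest point lies at site 11, with folds from 20.6 (NT2/D1 OCT4) to 51.45 (H9 NANOG), and the other peaks reach at most 16.75.

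By score, site 11 ranked 4 of 19349 for H9 SOX2 (score 2022.83), 4 of 29575 for H9 OCT4 (1294.31) and 3 of 33895 for H9 NANOG (3100). The NANOG rank is shared, since 3 peaks of that list have the score 3100. In NT2/D1 it ranked 12 of 38423 for SOX2 (score 526.88), 8 of 46169 for OCT4 (487.1) and 6 of 34208 for NANOG (701.33). The lists differ in length, so these ranks show no change between lines or factors. Ranked by fold instead of score, the H9 peaks of SOX2, OCT4 and NANOG stood at 5, 5 and 28. The corresponding NT2/D1 peaks stood at 45, 799 and 66 by fold. Ranked by tags, the places were 20, 43 and 28 for H9, then 31, 62 and 19 for NT2/D1. Its place therefore depended on the measure, most of all for NT2/D1 OCT4. The deposited FDR of the peak was 0 for H9 NANOG, 25% for NT2/D1 OCT4, 50% for H9 SOX2, 75% for H9 OCT4, and 100% for NT2/D1 SOX2 and NANOG.

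**Figure D2:**
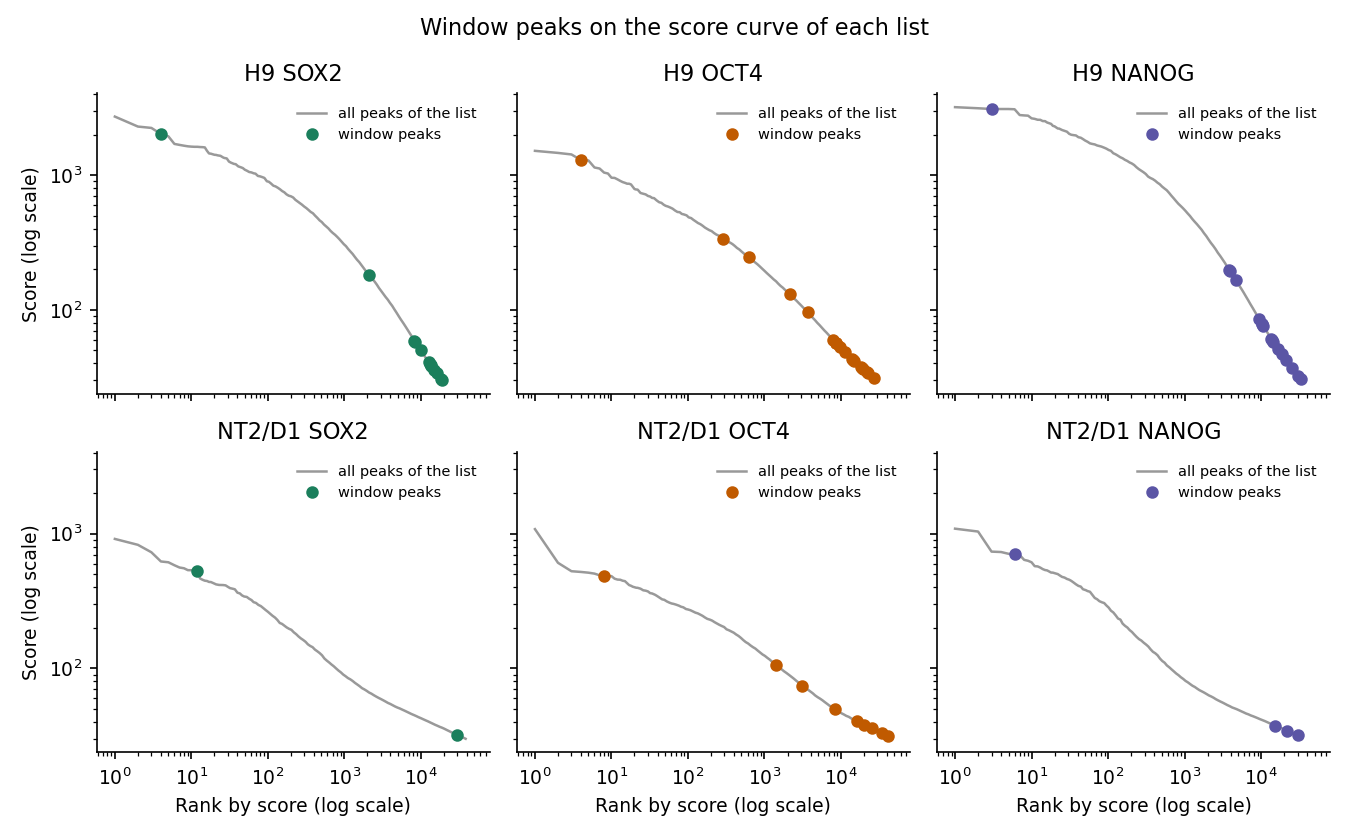
Score of every peak (y axis, log scale) against its rank by score within its list (x axis, log scale), with the window peaks as coloured points on the grey curve of the whole list. Site 11 sits at ranks 3 to 12 in all 6 panels, and the next window peak follows at rank 285 (H9 OCT4) to 29396 (NT2/D1 SOX2).

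The summits of site 11 lay close together although the peaks differed in width. The lowest was that of H9 SOX2 (87960550), followed by H9 OCT4 (87960554), NT2/D1 SOX2 (87960562), H9 NANOG (87960573), NT2/D1 NANOG (87960609) and NT2/D1 OCT4 (87960615), a range of 65 bp. The H9 peaks were 2295 (SOX2), 717 (OCT4) and 1053 bp (NANOG) wide, and those of NT2/D1 630, 338 and 485 bp. Peaks of H9 were called with a band width of 2000 and those of NT2/D1 with 200, and its part in the widths was not tested. Over the 1218 regions that had a peak in all 6 lists, the median range of the summits was 67 bp, with quartiles of 43 and 128, and 47.0% were narrower than at site 11. The close summits are thus near the median of such regions.

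Site 11 took a large share of the tags in window peaks, and that share varied by list. It held 42.7% of 1205 tags for H9 SOX2 (95% Wilson interval 40.0 to 45.6, counting error only), 18.1% of 1345 for H9 OCT4 (16.2 to 20.3) and 34.6% of 1337 for H9 NANOG (32.1 to 37.2). In NT2/D1 it held 89.9% of 99 tags for SOX2 (82.4 to 94.4), 42.7% of 178 for OCT4 (35.7 to 50) and 78.6% of 117 for NANOG (70.4 to 85.1). OCT4 had the lowest share in each line, by the titles, and the share was higher in NT2/D1 than in H9 for each factor. The NT2/D1 libraries had fewer unique tags and fewer window peaks, and the part of depth in the shares was not tested. With the NT2/D1 titles exchanged, the OCT4 share there would be 78.6% and the NANOG share 42.7%.

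**Figure D3:**
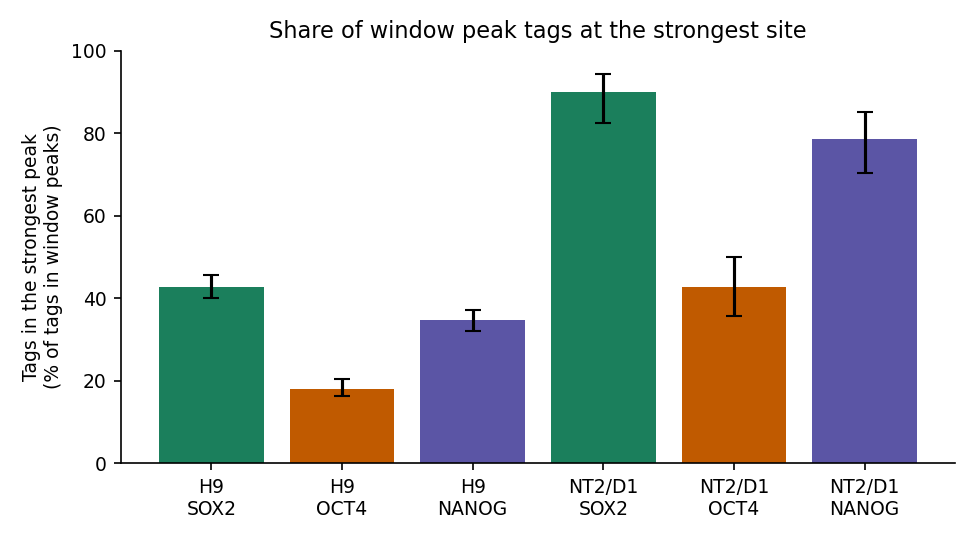
Tags in the site 11 peak as a percentage of the tags in all window peaks of the list (y axis), for the 6 lists (x axis); whiskers are 95% Wilson intervals that cover counting error only. The bars run from 18.1% for H9 OCT4 to 89.9% for NT2/D1 SOX2.

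The second peak of the window differed between factors. For H9 OCT4 it was at site 12 (chr5:87962355-87964217), with 218 tags, which is nearly the tag number of site 11 (a ratio of 1.12 between them), but with a fold of 8.23 and rank 285 (top 0.964% of the list). For H9 SOX2 it was at site 13 (chr5:87966404-87968653), with 197 tags, a fold of 8.3 and rank 2092 (top 10.8%). For H9 NANOG it was again at site 13, with 125 tags, a fold of 7.27 and rank 3854 (top 11.4%). In H9 the tags of site 11 over this next peak were 2.61 times for SOX2 and 3.7 times for NANOG. In NT2/D1, only OCT4 had a second peak in the upper 5% of its list, at site 13 with 22 tags, a fold of 16.75 and rank 1427 (top 3.09%). The next peaks of NT2/D1 SOX2 and NANOG held 10 and 9 tags, near their list medians of 11 and 9.

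Sites 11, 12 and 13 thus formed a row of peaks downstream of the lowest host start, in which the factors did not appear alike. Read from that start, the MIR9-2 hairpin falls within the span of site 12, with sites 11 and 13 on either side. Whether binding there bears on the microRNA was not tested. At site 12, by the titles, peaks of OCT4 were called in both lines and of NANOG in H9, but no SOX2 peak was called in either line. The H9 NANOG peak there held 118 tags (fold 6.08, top 11.5%) and the NT2/D1 OCT4 peak 28 tags (fold 8.1, top 17.9%), and the 3 summits lay within 39 bp. At site 13 all 3 factors were called in H9 and OCT4 alone in NT2/D1, with summits 1178 to 2051 bp from the NR_024384 start. The OCT4 peak of H9 held 184 tags there (fold 7.11, top 2.11%) and had the lowest summit of the site, and the 4 summits spread over 873 bp. With the NT2/D1 titles exchanged, the NT2/D1 peaks of sites 12 and 13 would be those of NANOG. A peak that is not called is not a measured absence of binding, since weak enrichment can fall short of the cutoff.

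By the score, 3 of 20 H9 OCT4 peaks of the window were among the highest 5% of their list, where 5.0% of all peaks are by construction. These were sites 11, 12 and 13. The count was 1 of 13 for H9 SOX2, 1 of 17 for H9 NANOG, 1 of 2 for NT2/D1 SOX2, 2 of 9 for NT2/D1 OCT4 and 1 of 4 for NT2/D1 NANOG, each against the same 5.0%. Of the window peaks outside site 11, 3 of 12 stood above the median score of the list for H9 SOX2, 12 of 19 for H9 OCT4 and 11 of 16 for H9 NANOG. In NT2/D1 this held for 0 of 1, 5 of 8 and 1 of 3. Most of the window peaks were therefore ordinary members of their lists, with folds of 2.98 to 10.34 in H9 and 6.25 to 16.75 in NT2/D1.

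Of the 3 host starts, NR_015436 and NR_024384 lay within weak peaks, all of them in H9, and NR_024383 lay within no peak of any list. Site 19 (chr5:87980138-87980949) lay over the NR_015436 start with 29 tags for SOX2 (fold 3.51, top 96.1%), 34 for OCT4 (4.37, top 50.4%) and 50 for NANOG (6.12, top 27.9%). The summits of SOX2 and NANOG were 19 and 18 bp from that start. Site 14 lay over the NR_024384 start with an OCT4 peak of 32 tags (fold 3.28, top 47.2%). These 4 peaks are those of the window that hold a recovered transcription start, 1 of 13 for SOX2, 2 of 20 for OCT4 and 1 of 17 for NANOG. Over the whole lists 1.49%, 2.27% and 2.67% of peaks hold one, and single peaks cannot be set apart from such shares. In NT2/D1 no window peak held a start, where the lists have 0.515% (SOX2), 4.33% (OCT4) and 0.661% (NANOG). The nearest in NT2/D1 was a NANOG peak of 8 tags at site 18 (fold 7.77), with its summit 1228 bp from NR_015436.

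Between and above the host starts lay a chain of smaller peaks. Site 16 (chr5:87971686-87972100) was an OCT4 peak of H9 with 53 tags, a fold of 7.36 and rank 2154 (top 7.28%). Site 22 (chr5:87985055-87987237) held SOX2 (52 tags, fold 4.32), OCT4 (62 tags, 3.69) and NANOG (58 tags, 4.5) in H9, but its summits spread over 901 bp. The 3 peaks there form a chain of overlaps rather than 1 common summit. Site 27 (chr5:88004315-88004872), 24.1 kb upstream of NR_015436, was an OCT4 site of both lines by the titles. It had 25 tags in H9 (fold 4.99, top 48.0%) and 18 tags in NT2/D1 (fold 11.27, rank 3117, top 6.75%), and the summits lay 6 bp apart. It is the only site of the window whose NT2/D1 peak stood among the upper 10% of its list while its H9 peak did not.

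Site 25 (chr5:87992005-87992786), 11.8 to 11.9 kb upstream of NR_015436, was called in 5 of the 6 lists, all but NT2/D1 OCT4. Its H9 peaks held 54 tags for SOX2 (fold 4.53), 40 for OCT4 (6.03) and 37 for NANOG (7.54). Its NT2/D1 peaks held 10 tags for SOX2 (fold 6.25) and 8 for NANOG (9.07), in the weaker part of their lists (top 76.5% and 88.9%). The 5 summits lay within 66 bp. By number of lists, it is the nearest to site 11, though its folds are those of a common peak.

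**Figure D4:**
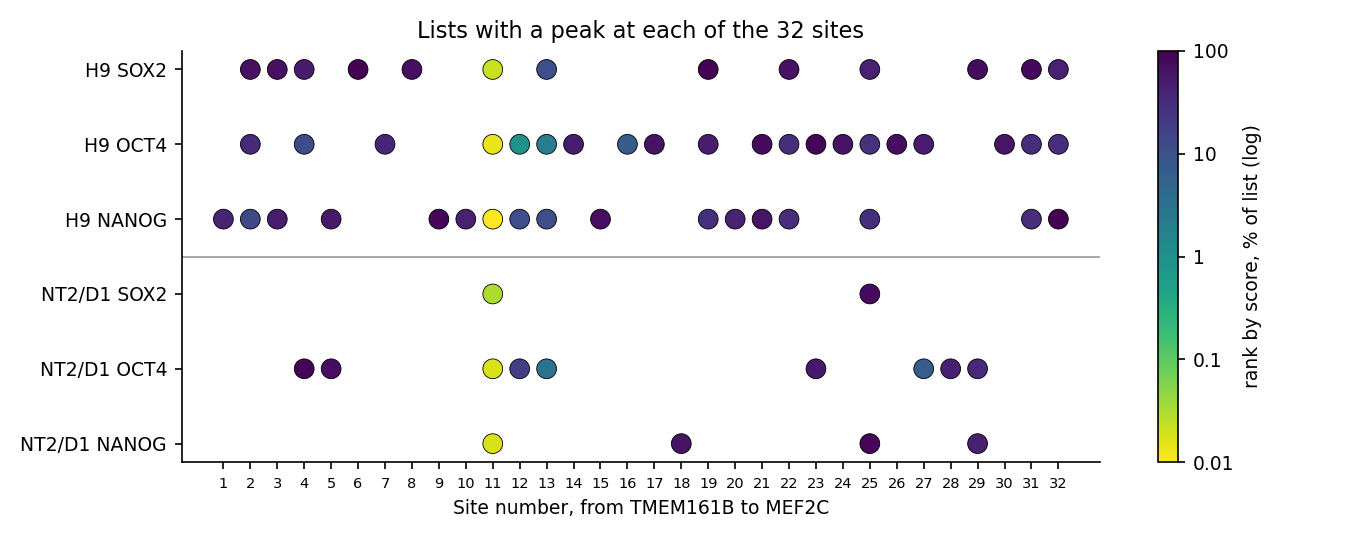
The 32 sites from TMEM161B to MEF2C (x axis, by number) against the 6 lists (y axis); a circle marks a peak and its colour gives the rank by score as a percentage of the list (log scale, yellow for the highest ranks). Site 11 alone has a circle in all 6 rows, and site 25 has 5.

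In every list but H9 SOX2, most window peaks lay near the host starts, with distance measured to starts and not to gene bodies. Within 25 kb of the host starts, which is 61.5 kb or 8.91% of the window, lay 5 of 13 peaks of H9 SOX2 (38.5%), 14 of 20 of OCT4 (70.0%) and 10 of 17 of NANOG (58.8%). In NT2/D1 the counts were 2 of 2 for SOX2, 6 of 9 for OCT4 (66.7%) and 3 of 4 for NANOG (75%). H9 SOX2 had as many peaks, 5, in the 384 kb between this zone and TMEM161B. The other lists had 3 (H9 OCT4), 5 (H9 NANOG), 0 (NT2/D1 SOX2), 2 (NT2/D1 OCT4) and 0 (NT2/D1 NANOG) there. These counts describe the chosen window, which was placed around its strongest peak, and were not tested.

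On the TMEM161B side, sites 2, 3 and 4 stood close to each other, about 276 to 285 kb from the nearest host start. Site 2 (chr5:87684003-87684998) held all 3 factors in H9, with 50 tags for SOX2 (fold 3.82), 66 for OCT4 (3.94) and 81 for NANOG (10.34, top 13.8%). That NANOG peak had the highest fold of the H9 peaks outside site 11. Site 4 (chr5:87692420-87693741) held SOX2 (65 tags, fold 3.92) and OCT4 (87 tags, 4.38, top 12.4%) in H9 and an OCT4 peak of 6 tags in NT2/D1 (fold 10.18, top 89.1%), with summits within 17 bp. Site 3 held SOX2 (41 tags, fold 3.0) and NANOG (40 tags, 4.28) in H9. Toward the host gene followed sites 5 to 9, with 22 to 40 tags in H9 and 5 tags in the 1 NT2/D1 peak, of OCT4 at site 5.

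TMEM161B had no window peak within 50 kb of its start. The nearest window peak, site 1 of H9 NANOG with 44 tags (fold 4.81), was 88.4 kb away. The peaks that the submitters' distances assign to TMEM161B within 50 kb lie below the window's edge: the strongest held 43 tags for H9 SOX2 (fold 4.3), 50 for H9 OCT4 (3.23), 146 for H9 NANOG (5.99, top 20.6%) and 5 for NT2/D1 OCT4 (9.29). The H9 peaks lie 5636 to 7023 bp outside the edge and are the nearest ones excluded on that side. On the upper side the nearest excluded H9 peaks lie 1116 to 1242 bp outside, with 38 tags for SOX2 (fold 7.86), 26 for OCT4 (3.16) and 23 for NANOG (5.18). The last included ones, at site 32, end 4290 to 4715 bp inside.

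Within 50 kb of the 2 MEF2C starts recovered on hg19, H9 had 2 peaks of SOX2, 3 of OCT4 and 2 of NANOG, and NT2/D1 had none. RefSeq lists 7 starts of MEF2C on GRCh38.p14, and these counts use only the recovered ones, so other parts of the gene are not covered by them. Site 29, described below, lies close to a further start and held OCT4 and NANOG peaks in NT2/D1. Site 31 (chr5:88192996-88194452) lies between the starts and 5417 bp or more from NM_001131005. It held 36 tags for SOX2 (fold 3.62, top 83.0%), 37 for OCT4 (5.43, top 29.5%) and 77 for NANOG (7.25, top 30.6%), with summits within 32 bp. Site 32 (chr5:88244569-88245710) lies 44.7 kb or more upstream with 66, 37 and 25 tags (folds 3.94, 4.04 and 4.07), and site 30 held an OCT4 peak of 37 tags (fold 3.49). Over all 19622 named genes of the lists, 27.6% had a peak within 50 kb for H9 SOX2, 45.3% for H9 OCT4 and 45.0% for H9 NANOG. In NT2/D1 the SOX2 list gave 45.3%, the OCT4 list 64.8% and the NANOG list 45.3%. Peaks of every factor were assigned to 19.2% of genes in H9 and 25.1% in NT2/D1. TMEM161B and MEF2C both had every factor in H9 and neither did in NT2/D1, and for 2 genes this cannot be set apart from those shares.

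From site 28, 24.5 kb upstream of NR_015436, to the lower of the MEF2C starts recovered on hg19, the window was nearly empty. The only site there, site 29 (chr5:88080489-88081189), lies about 100 kb upstream of NR_015436. As MEF2C is on the minus strand, the site lies downstream of its recovered starts. A further MEF2C start, at 88785511 on GRCh38.p14, falls just upstream of site 29 when read from the TMEM161B and lowest host starts. That placing is approximate, and the end of the gene was not placed on hg19. Site 29 held SOX2 in H9 (39 tags, fold 4.89) and OCT4 (6 tags, 11.61) and NANOG (9 tags, 9.07) in NT2/D1. Among the sites called in both lines, it is the 1 at which NT2/D1 had more lists than H9.

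Of the 32 sites, 21 had H9 peaks only, 2 had NT2/D1 peaks only and 9 had both. The same-factor overlap of H9 peaks with NT2/D1 was close to that of the whole list for each factor. For SOX2 it was 2 of 13 peaks (15.4%, 95% Wilson interval 4.33 to 42.2) against 16.2% of all H9 SOX2 peaks. For OCT4 it was 6 of 20 (30%, 14.5 to 51.9) against 26.1%, and for NANOG 2 of 17 (11.8%, 3.29 to 34.3) against 9.83%. With the NT2/D1 titles exchanged, 2 of 20 OCT4 peaks and 4 of 17 NANOG peaks had a partner. Where the overlap had to cover 50% of both peaks, 0 SOX2, 0 OCT4 and 1 NANOG peak had a partner. Counting any NT2/D1 peak as a partner gave 5 of 13 (38.5%) for SOX2 against 37.9%, 7 of 20 (35.0%) for OCT4 against 30.4% and 5 of 17 (29.4%) for NANOG against 30.0%.

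**Figure D5:**
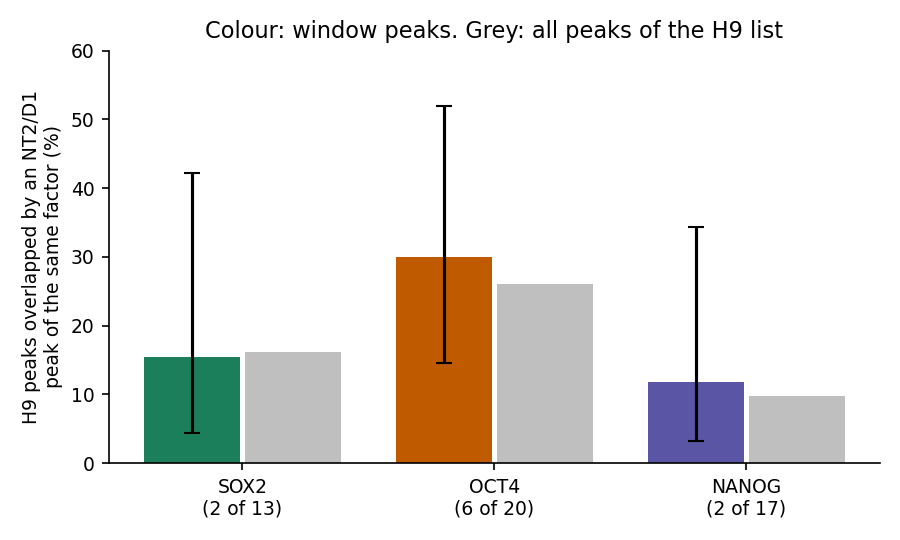
Share of H9 peaks that a peak of the same factor in NT2/D1 overlaps (y axis, percent) for window peaks (coloured bars, with 95% Wilson intervals) and for all peaks of the H9 list (grey bars). The window shares of 15.4%, 30% and 11.8% stand beside 16.2%, 26.1% and 9.83%, and every interval holds the value of the whole list.

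In the other direction, and by the titles, most of the few NT2/D1 peaks had an H9 partner. This held for 2 of 2 SOX2 peaks (34.2 to 100%), where 8.36% of all NT2/D1 SOX2 peaks have one. It held for 6 of 9 OCT4 peaks (66.7%, 35.4 to 87.9) against 17.1%, and for 2 of 4 NANOG peaks (50%, 15.0 to 85.0) against 10.1%. The intervals cover counting error only, peaks of 1 library are not replicates, and no test against the whole lists was made. Site 11, on whose scores the window was selected, supplies 1 peak to each of these counts. The H9 lists were also dense in the window, so the shares are not an independent sign.

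The factors met at several sites of H9. Of 30 regions merged over the H9 lists, 8 held all 3 factors (26.7%), against 14.7% of such regions in the whole lists, and these were sites 2, 11, 13, 19, 22, 25, 31 and 32. The count was 5 where summits had to lie within 200 bp, 3 with the upper 50% of each list by score and 2 with an FDR of at most 5%. In NT2/D1, 1 of 11 regions held all 3 (9.09%, site 11) against 1.79%. Over all 6 lists it was 1 of 32 (3.12%) against 0.823%. Site 11, on whose scores the window was selected, is the only region in these last counts and is 1 of the 8 in H9. The shares are therefore a description and not a test against the whole lists. The H9 lists share an IgG library, as do those of SOX2 and NANOG in NT2/D1, and the part of the shared control in joint peaks was not tested.

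The window held more peaks than the median tile of its length in each H9 list and fewer in each NT2/D1 list. It held 13 SOX2, 20 OCT4 and 17 NANOG peaks in H9, where tiles of the same length over chromosomes 1 to 22 and X had medians of 4, 6 and 7. Among 4151 tiles with any peak, 1.83% had at least as many in the SOX2 list, 1.54% in that of OCT4 and 4.77% in that of NANOG. The window was chosen around a strong peak with results of these lists known, and the tiles were not. These shares of tiles are therefore a description and not a test. In NT2/D1 the window held 2 SOX2, 9 OCT4 and 4 NANOG peaks against medians of 6, 10 and 5, and 84.7%, 59.4% and 61.5% of tiles had at least as many. The NT2/D1 side of this depends on what it is set beside. Peaks per Mb in the window over those of the whole list were 0.221 (SOX2), 0.831 (OCT4) and 0.498 (NANOG) in NT2/D1, but 0.647, 1.26 and 1.51 over those of chromosome 5 alone. For H9 the ratios were 2.86, 2.89 and 2.14 over the whole list and 2.62, 2.99 and 2.09 over chromosome 5. The lines differ in tag depth and peak-calling settings, so that the line and these settings cannot be told apart.

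The other hosts of miR-9 were assigned peaks too, with lower ranks. MIR9-1HG, MIR9-2HG and MIR9-3HG each had a peak within 50 kb in all 6 lists, where between 27.6% (H9 SOX2) and 64.8% (NT2/D1 OCT4) of all genes have one, and the microRNA genes themselves are not named in the gene columns. For MIR9-1HG the best NT2/D1 peaks held 33 SOX2 tags (fold 9.62, top 2.5%), 17 OCT4 tags (fold 4.71, top 49.0%) and 20 NANOG tags (fold 7.04, top 4.4%). In H9 its best peaks stood at the top 45.6% (SOX2), 38.8% (OCT4) and 48.9% (NANOG). For MIR9-3HG the best OCT4 peaks held 98 tags in H9 (fold 7.62, top 3.47%, 18808 bp from its start) and 27 in NT2/D1 (fold 18.32, top 1.51%, 19072 bp). Its best peaks of SOX2 and NANOG stood at the top 27.9% and 16.3% in H9, then 19.7% and 59.3% in NT2/D1. At MIR9-2HG the best peak stood within the top 0.00885% to 0.0312% in every list, by the choice of the window.

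Among 4 relatives of the window's genes (MEF2A, MEF2B, MEF2D and TMEM161A), H9 had SOX2 peaks at 1, OCT4 peaks at 3 and NANOG peaks at 4, and each NT2/D1 list had peaks at all 4. The shares of all genes are 27.6%, 45.3% and 45.0% for the H9 lists, then 45.3%, 64.8% and 45.3% for those of NT2/D1, and 4 genes are too few to be set apart from them. MEF2D, a MADS-box factor like MEF2C, reached the top 3.06% for NT2/D1 SOX2 (41 tags, fold 6.47) and the top 2.39% for NT2/D1 NANOG (56 tags, fold 4.93), and the top 6.35% for NT2/D1 OCT4. Its best H9 peaks stood at the top 67.8% (SOX2), 81.0% (OCT4) and 27.2% (NANOG).

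Of 14 published miR-9 targets, H9 had SOX2 peaks at 11, OCT4 peaks at 12 and NANOG peaks at 14. Among all genes the shares are 27.6%, 45.3% and 45.0%. The NT2/D1 lists had them at 7, 12 and 9 of the 14, where all genes give 45.3%, 64.8% and 45.3%. Peaks of every factor were assigned to 10 of the 14 in H9, against 19.2% of all genes, and to 5 in NT2/D1, against 25.1%. The targets were not tested as a list. REST, the repressor of neuronal genes, had peaks 30 to 134 bp from a start in all 6 lists. The H9 peaks held 185 SOX2, 115 OCT4 and 216 NANOG tags (folds 17.07, 10.3 and 25.2). Those of NT2/D1 held 47, 51 and 40 tags (folds 19.16, 30.44 and 17.43). ISL1, a LIM-homeodomain factor of motor neurons and heart, had peaks about 11.3 to 11.5 kb from its start in all 6 lists, with folds of 26.79 (SOX2), 13.34 (OCT4) and 29.42 (NANOG) for H9. The NT2/D1 folds at ISL1 were 14.57, 17.78 and 9.09 in the same order. NR2E1, the neural stem cell receptor also called TLX, reached the top 1.65% for H9 SOX2 (203 tags) and the top 2.16% for H9 OCT4 (98 tags). Its best peaks elsewhere stood at the top 20.2% for H9 NANOG, then 75.2% (SOX2), 27.4% (OCT4) and 18.4% (NANOG) in NT2/D1. HES1, an effector of Notch signalling, reached the top 4.15% for NT2/D1 OCT4 (26 tags, fold 11.62). It had no H9 SOX2 peak within 50 kb, and its best others stood at the top 28.8% (OCT4) and 24.1% (NANOG) in H9, then 6.48% (SOX2) and 57.2% (NANOG) in NT2/D1.

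Promoter sequences of the window's genes were searched on GRCh38.p14 for the octamer ATGCAAAT, the motif bound by OCT4, on both strands. It was found in 2 of the 15 promoters of the 6 genes there, each 250 bases before to 50 after a start, and in 623 of 35116 promoters of all genes (1.77%). The SOX site CATTGTT was in 0 of the 15 and in 3.33% of all, and the joint motif of CATTGT, 1 base of any kind and the octamer in 0 of the 15 and in 2 of all promoters. None of the 3 promoters of MIR9-2HG held a match. The promoters with an octamer are those of MEF2C-AS2 (chr5:88675968-88676267, plus strand, the match beginning 170 bases before the start) and of 1 of 7 starts of MEF2C (chr5:88824295-88824594, minus strand, 60 bases before the start). They are printed 5′ to 3′ on the gene's strand, from RefSeq, with the octamer or its reverse complement ATTTGCAT in capitals:
MEF2C-AS2: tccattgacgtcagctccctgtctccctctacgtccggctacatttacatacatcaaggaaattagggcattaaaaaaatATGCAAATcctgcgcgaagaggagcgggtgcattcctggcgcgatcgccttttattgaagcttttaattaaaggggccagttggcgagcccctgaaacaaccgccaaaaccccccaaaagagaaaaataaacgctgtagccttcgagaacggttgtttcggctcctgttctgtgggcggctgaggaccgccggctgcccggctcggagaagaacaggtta
MEF2C: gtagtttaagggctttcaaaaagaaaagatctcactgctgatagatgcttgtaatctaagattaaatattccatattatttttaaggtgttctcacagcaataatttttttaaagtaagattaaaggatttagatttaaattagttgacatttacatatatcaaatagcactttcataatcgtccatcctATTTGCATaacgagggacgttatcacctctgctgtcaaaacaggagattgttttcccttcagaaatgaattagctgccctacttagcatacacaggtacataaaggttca

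Read from the lowest host start, the MEF2C-AS2 octamer falls within the span of site 16. That site is an OCT4 peak of H9 (53 tags, fold 7.36, top 7.28%). The MEF2C octamer falls at no site of the window. These placings are approximate, and a match of letters is a description of the sequence only. Its part in binding was not tested.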

How the data were processed

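Binding was read from the deposited peak lists of the 6 factor libraries. The IgG samples entered only as the background of those lists. The authors called peaks with MACS for each library against an IgG library (tag size 50, p-value cutoff 0.001), per the file headers, on hg19, per the submitters' processing notes. No aligner or MACS version is given in the sources used here. Per the file headers, each deposited peak has a whole tag count with no normalization, a fold, which is a ratio over background, and an FDR in percent. The deposited score column had lost its name and was taken for the usual MACS score, the log10 of the p-value with its sign changed and multiplied by 10, since its lowest value was 30 in every list. NT2/D1 OCT4 was called with a model fold of 5 and its own IgG library, the other lists with a model fold of 3, per the file headers.

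Libraries were grouped by title. From the lists, window peaks were selected, merged at an overlap of at least 1 bp, and ranked by score, fold and tags with pandas 2.3.3 in Python 3.11.15, checked on simulated lists. Wilson intervals came from SciPy 1.17.1. Starts on hg19 needed at least 2 listed distances that pointed to the same base. Of 25014 RefSeq accessions, 23834 (95.3%) matched the GRCh38.p14 table, used for names, strand, sequences and the approximate placing of positions beside sites. Genes are named if the submitters list them beside a window peak or if, in 3 lists (hosts of miR-9, relatives of the window's genes, miR-9 targets), a peak within 50 kb is among the highest 5% of its list, at most 4 a list. The members and lists were chosen with earlier results of these data known. Alternatives were stricter lists, other overlap rules, the exchanged titles, other rankings and chromosome 5 as background.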

Additional observations from a re-analysis of the deposited data

How the results depend on the processing

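Of 53 alternatives for the main counts, 25 stayed within 1.5 times the reported value and 28 moved. With the upper 50% of each list by score, the window held 4 peaks of H9 SOX2, 13 of H9 OCT4, 1 of NT2/D1 SOX2 and 2 of NT2/D1 NANOG, 3 H9 regions had all 3 factors, and 1 H9 SOX2 and 1 H9 NANOG peak had an NT2/D1 partner. With lists of equal length (19349 peaks), 1 NT2/D1 SOX2, 5 NT2/D1 OCT4 and 2 NT2/D1 NANOG peaks were left, and the partners were 1 for SOX2 and 1 for NANOG. With an FDR of at most 5%, there were 3 H9 SOX2, 10 H9 OCT4, 1 NT2/D1 SOX2 and 3 NT2/D1 OCT4 peaks. The regions with all 3 factors then numbered 2 in H9 and 0 in NT2/D1, those with all 6 lists 0, and the partners 1, 2 and 1 for SOX2, OCT4 and NANOG. That limit kept site 11 in 1 list, H9 NANOG, while both other limits kept it in 6. With summits within 200 bp, 5 H9 regions had all 3 factors. With a reciprocal overlap of 50%, the partners were 0, 0 and 1, and under exchanged titles for OCT4 and NANOG in NT2/D1 they were 2 for OCT4 and 4 for NANOG. Fewer peaks enter under each limit on the lists, and the cause was not tested otherwise. Set beside chromosome 5 alone, the density of window peaks over that of the list went from 0.221 to 0.647 for NT2/D1 SOX2, from 0.831 to 1.26 for NT2/D1 OCT4 and from 0.498 to 1.51 for NT2/D1 NANOG, and stayed between 2.09 and 2.99 in H9. Counting peaks that overlap the window's edge changed no count.

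No paired analysis was possible because each factor and line had 1 library and no test between libraries was made. Peaks of 5 to 10 tags in NT2/D1 carry wide counting error and a site without a peak there is not detected at that depth, not absent.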
